A study of Mus musculus with 8 samples.

Results

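The genes described here are those named Zfp followed by a digit, a mouse naming series for zinc finger proteins. They were taken by name alone, as every row of the deposited table whose gene name starts with ZFP and a number, which gave 402 rows and, after rows of the same gene were joined, 399 genes of 25236. Of the 399, 374 were annotated as protein-coding in the table, 8 had another biotype and 17 carried no annotation; its transcription factor column placed 326 in the C2H2 zinc finger family and 2 in the ZBTB family.

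The samples were pancreatic ductal adenocarcinoma cells of C57BL/6 mice, with Setd2 either intact (wild type, WT) or knocked out (KO), and the assay was CUT&Tag, in which an antibody tethers a transposase that cuts and tags the DNA around a histone mark. Setd2 is the methyltransferase that makes H3K36me3, the mark laid down over the bodies of transcribed genes; H3K27ac marks active promoters and H3K27me3 is the mark of Polycomb repression. There were 4 pairs of KO and WT: H3K36me3 over gene bodies, H3K27me3 at promoters, and H3K27ac at promoters in 2 pairs, of which 1 has vitro in its title. Each of the 8 libraries was the only one of its group, and neither the number of knockout clones nor the way the deletion was made is stated in the sources used here. All groups are labelled as cultured, but the title of the series has them sorted from orthotopic tumours.

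C2H2 zinc finger proteins carry short loops, each folded around a zinc ion, that read DNA bases in a row. Many of the mouse Zfp genes encode a KRAB domain beside the fingers, which recruits the corepressor KAP1 (Trim28) and with it H3K9 methylation, above all at retroelements. Such genes arose by repeated duplication and lie in clusters of similar sequence, whereas others, spread singly through the genome, encode developmental regulators or, in the CCCH group of Zfp36, RNA-binding proteins.

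Values are signal per kilobase, the deposited mean per base put on a kilobase scale, and promoter windows are of 1 length, so levels can be set side by side between genes. The promoter values were whole multiples of 1 step in each library, which was read as 1 read end, and the medians over all genes with signal were 66 to 167 read ends in a window. A KO over WT ratio is log2((KO + floor) / (WT + floor)), with the 25th percentile of the positive values of the pair as the floor, and only genes whose mean over the pair reached the floor were measured. Genes were called at 1.5-fold. With 1 library a group there is no replicate check and no test; intervals given for single genes are 95% counting intervals on the ratio of values, with read ends counted in pairs, and cover counting error only.

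At the Setd2 gene itself, gene-body H3K36me3 was 2.32 per kilobase in KO and 2.38 in WT and promoter H3K27ac in the vitro pair was 18.8 and 19.4. Without the vitro label its promoter H3K27ac was 25.1 in KO and 15.6 in WT, and H3K27me3 was 6.05 and 2.41. These marks do not measure the Setd2 transcript or protein. Epithelial markers (Krt8, Krt18, Krt19, Epcam, Cdh1 and Sox9) had H3K27ac summed over the 6 genes between 159 and 477 per kilobase, most of it from the keratins. Epcam was at 2.87 in WT and 2.57 in KO in the vitro pair, no higher than some leukocyte markers there, and Cdh1 at 24.02 and 5.72, while the sum went from 412 to 477. Summed levels were 14.6 to 34.1 for 6 leukocyte markers, 12.6 to 34.6 for 4 endothelial markers and 17.6 to 77.8 for 5 fibroblast markers, of which none was at 0. The fibroblast sum was higher in KO in both settings (77.8 against 42.7, and 37.2 against 17.6 in the vitro pair), mainly through Col1a1 and Pdgfrb. Its median gene was lower in KO (7.23 against 10.3, and 3.83 against 3.97), and Pdgfra was lower in both settings. Dcn and Lum were lower in KO in the vitro pair. Without the vitro label they were higher in KO (Dcn 6.79 against 3.825, Lum 6.35 against 3.215). The leukocyte sum was lower in KO in both (18.2 against 34.1, and 14.6 against 20.6). The part of these cells in the differences below was not tested.

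The Zfp genes were unevenly placed. Chromosome 7 held 93 of them (23.3%, against 7.62% of the 16034 other protein-coding genes), chromosome 17 held 46, chromosome 13 held 38 and chromosome 2 held 28. With a cluster defined as at least 4 members, each within 250 kb of the next, 177 lay in 22 clusters and 222 were dispersed. Their median span was 17.1 kb (from 1.59 to 575 kb), against 23.1 kb for the other protein-coding genes. Promoter sequence from RefSeq (GRCm38.p6, 250 bases before to 50 after the start) was matched for 329 of the 399 by symbol, and for 283 of these the RefSeq start lay within 500 bases of the start in the deposited table.

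The promoters of 5 members that recur in the results are printed to show how far CpG content, which moved with acetylation (see the CpG classes), varied among them; capitals mark each CpG. Zfp687 had the highest H3K27ac of all members in the vitro WT library, Zfp386 the highest KO over WT ratio in the pair without the vitro label and Zfp422 the lowest in the vitro pair. Zfp423 had the highest H3K27me3, and Zfp941 had opposite H3K27ac differences in the 2 settings.
Zfp687 (chr3:95015408-95015707, - strand): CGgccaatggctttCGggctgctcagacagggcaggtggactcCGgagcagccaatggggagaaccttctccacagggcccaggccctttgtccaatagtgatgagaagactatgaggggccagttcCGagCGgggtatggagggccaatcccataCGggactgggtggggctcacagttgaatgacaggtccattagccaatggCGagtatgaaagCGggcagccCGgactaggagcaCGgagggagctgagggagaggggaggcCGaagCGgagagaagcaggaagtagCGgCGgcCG
Zfp386 (chr12:116047474-116047773, + strand): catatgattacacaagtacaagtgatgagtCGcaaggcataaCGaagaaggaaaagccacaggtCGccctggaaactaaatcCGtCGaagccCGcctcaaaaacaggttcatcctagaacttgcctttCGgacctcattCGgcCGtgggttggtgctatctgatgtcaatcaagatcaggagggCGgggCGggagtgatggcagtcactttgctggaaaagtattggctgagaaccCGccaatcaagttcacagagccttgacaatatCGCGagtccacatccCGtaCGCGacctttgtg
Zfp422 (chr6:116628652-116628951, - strand): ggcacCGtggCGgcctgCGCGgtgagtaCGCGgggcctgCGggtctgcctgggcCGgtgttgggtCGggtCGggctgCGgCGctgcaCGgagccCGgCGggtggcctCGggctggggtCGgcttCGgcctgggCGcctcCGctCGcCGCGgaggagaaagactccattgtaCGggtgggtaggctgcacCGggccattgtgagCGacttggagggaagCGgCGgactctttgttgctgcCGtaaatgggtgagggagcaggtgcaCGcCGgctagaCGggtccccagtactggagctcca
Zfp423 (chr8:87959546-87959845, - strand): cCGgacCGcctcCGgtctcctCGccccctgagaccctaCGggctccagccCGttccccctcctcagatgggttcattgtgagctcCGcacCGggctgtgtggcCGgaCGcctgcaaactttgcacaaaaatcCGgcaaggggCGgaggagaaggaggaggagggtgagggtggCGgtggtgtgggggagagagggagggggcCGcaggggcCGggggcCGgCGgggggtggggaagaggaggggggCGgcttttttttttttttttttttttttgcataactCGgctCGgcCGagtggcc
Zfp941 (chr7:140822129-140822428, - strand): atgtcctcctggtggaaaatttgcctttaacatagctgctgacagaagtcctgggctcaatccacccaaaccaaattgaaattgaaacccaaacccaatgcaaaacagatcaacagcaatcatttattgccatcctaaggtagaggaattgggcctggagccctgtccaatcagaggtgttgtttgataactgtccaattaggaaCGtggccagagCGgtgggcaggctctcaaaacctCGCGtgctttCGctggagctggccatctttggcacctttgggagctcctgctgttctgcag

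These windows held 15 CpGs in Zfp687, 17 in Zfp386, 32 in Zfp422, 21 in Zfp423 and 5 in Zfp941. Over the 329 members matched, the median was 13 CpGs (quartiles 8 and 21, range 0 to 59), against 18 in 12683 other protein-coding promoters, and the median GC content was 54.3% against 59.7%.

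The promoters of a second set of 3 members, all in 1 chromosome 7 cluster, are shown because they share the core of the SBS motif. ZNF143, the human counterpart of Zfp143, is known to bind this motif, and capitals mark the core.
Zfp180 (chr7:24081647-24081946, + strand): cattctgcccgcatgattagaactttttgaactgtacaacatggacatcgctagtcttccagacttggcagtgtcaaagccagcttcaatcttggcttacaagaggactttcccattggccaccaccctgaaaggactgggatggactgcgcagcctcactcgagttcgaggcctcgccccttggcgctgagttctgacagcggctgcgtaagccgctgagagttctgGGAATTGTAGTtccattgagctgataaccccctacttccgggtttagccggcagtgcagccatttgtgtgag
Zfp108 (chr7:24254544-24254843, + strand): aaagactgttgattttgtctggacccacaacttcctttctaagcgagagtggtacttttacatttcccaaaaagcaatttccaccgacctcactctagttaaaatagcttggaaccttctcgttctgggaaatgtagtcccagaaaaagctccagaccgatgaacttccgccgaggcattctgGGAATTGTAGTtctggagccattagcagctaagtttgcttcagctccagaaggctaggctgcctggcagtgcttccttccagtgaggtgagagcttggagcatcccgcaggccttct
Zfp93 (chr7:24270168-24270467, + strand): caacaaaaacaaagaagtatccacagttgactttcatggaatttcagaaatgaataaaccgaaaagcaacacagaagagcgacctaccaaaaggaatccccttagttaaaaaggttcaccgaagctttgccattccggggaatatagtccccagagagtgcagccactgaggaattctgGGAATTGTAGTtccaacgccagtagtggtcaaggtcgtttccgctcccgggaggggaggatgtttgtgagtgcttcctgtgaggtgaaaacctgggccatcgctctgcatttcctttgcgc

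The motif began 22 bases before the RefSeq start in Zfp180, 67 in Zfp108 and 71 in Zfp93. Searched on both strands with exactly the letters in capitals, it was found in 9 of the 329 member promoters (2.74%) and in 65 of 12683 other protein-coding promoters (0.512%). The members holding it were Zfp1, Zfp58, Zfp93, Zfp108, Zfp128, Zfp180, Zfp454, Zfp692 and Zfp933. They did not share a level: vitro WT H3K27ac was 27.3 per kilobase at Zfp1, 20.9 at Zfp180 and 18.2 at Zfp692, but 2.41 at Zfp108 and 2.41 at Zfp454. Of the 8 measured in the vitro pair none was called in either direction (10.9% of all genes were called higher in KO and 13.6% lower), and without the vitro label 2 of 8 were higher in H3K27ac and none lower (33.3% and 11.5%). In H3K36me3, 4 of 6 were higher and 1 lower (27.1% and 30.3%). Since 3 of the 9 lie in 1 cluster, they are not independent of each other.

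Other motifs were also searched on both strands; these shares were not tested. CCGGAAG, a core bound by ETS factors, was in 22.5% of member promoters and 14.6% of the others, and the palindromic core of the NRF1 motif in 3.34% and 1.60%. GGGCGG, the core of the Sp1 and Klf motif, was in 44.4% and 57.7%, TATAAA in 6.69% and 9.41%, and TGACGTCA, the cyclic AMP response element, in 3.34% and 2.82%. Because the members had fewer CpGs, shares of CpG-bearing motifs are not at equal base composition, and a match describes letters only.

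Promoter H3K27ac was lower at the Zfp genes than at other protein-coding genes in all 4 libraries. The median over the 399 was 7.87 per kilobase in WT (quartiles 4.55 and 13.6) and 10.3 in KO (4.60 and 19.7), against 10.3 and 13.3 in the other genes. In the vitro pair it was 9.998 in WT and 11.2 in KO, against 12.2 in both libraries. When the other genes were weighted to the members' classes of gene span, their medians were 10.6 and 14.02, and 13.1 and 12.8 in the vitro pair. The members' medians were 0.734 to 0.879 times those of genes of like span. A tail of members was among the most acetylated promoters, and 27 of the 399 (6.77%) were in the top 10% of the other protein-coding genes in the vitro WT library.

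H3K27me3 was low at the Zfp genes too. The median was 1.75 per kilobase in WT and 2.53 in KO, which is 0.4998 and 0.590 times the span-weighted medians of the other genes (3.51 and 4.29). Only 9 members (2.26%) reached the top 10% of the other protein-coding genes in WT, and 21.1% of the members lay in their lowest 10%. Across the members, log2 levels of vitro H3K27ac and H3K27me3 in WT were almost unrelated (r = -0.09, Spearman's rho = -0.07, n = 399), whereas across the 16034 other genes they were inversely related (r = -0.40, rho = -0.41); genes within a library share its depth and background, and neighbours are not independent.

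Gene-body H3K36me3 was also somewhat below that of other genes, with medians 0.802 (WT) and 0.818 (KO) times the span-weighted ones. The median was 3.38 per kilobase in WT and 3.37 in KO, against span-weighted 4.21 and 4.12, and 40 members (10.03%) were in the top 10% of other genes in WT. The plot of levels shows these medians for the 8 libraries.

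**Figure D1:**
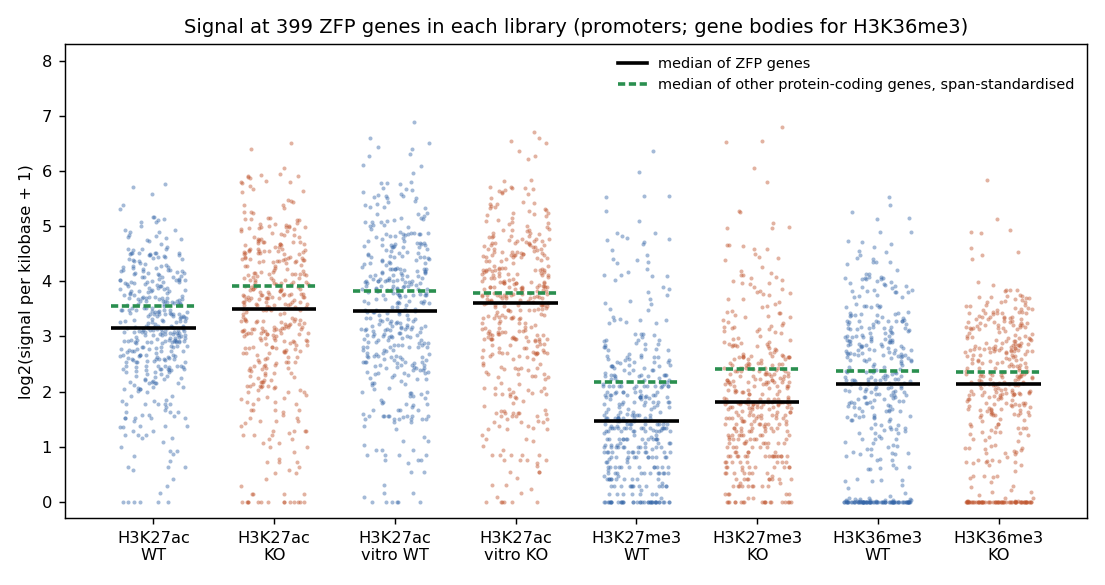
Signal per kilobase at each of the 399 Zfp genes in the 8 libraries, on a log2(value + 1) axis, in promoter windows or, for H3K36me3, over gene bodies. Blue points are WT and orange points KO, black bars the members' medians and green dashed bars the span-weighted medians of other protein-coding genes. The black bar is below the green one in all 8 libraries, by the widest margin in H3K27me3.

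The CCCH members, which bind AU-rich elements and speed the decay of cytokine and growth factor transcripts, were heavily acetylated. Zfp36 (tristetraprolin) had H3K27ac of 53.3 per kilobase in WT and 83.5 in KO, and 95.3 and 103.8 in the vitro pair. Zfp36l2 had 46.8 and 89.6, and 89.8 and 95.9. Zfp36l1 had 26.997 and 31.6, and 45.1 and 42.3. Both Zfp36 and Zfp36l2 were thus higher in KO without the vitro label, by ratios of 1.57 (interval 1.39 to 1.76) and 1.92 (1.70 to 2.16), and nearly level in the vitro pair. Without the label, 33.3% of all genes were called higher. The median log2 ratio of all genes was 0.32 there, beside 0.62 at Zfp36 and 0.89 at Zfp36l2, so part of both differences is shared by the genes as a whole. H3K27me3 at all 3 promoters was 5.06 or less in each library. Gene-body H3K36me3 of Zfp36, 44.9 in WT and 55.8 in KO, was the highest of all members in both libraries.

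Of the members that regulate development, Zfp423, Zfp536, Zfp521 and Zfp503 were high in H3K27me3. Zfp703, Zfp750 and Zfp217 were not, and the values of Zfp750 and Zfp217 are given further below. Zfp423, a regulator of preadipocyte commitment and cerebellar development, had the highest H3K27me3 of the 399, 81.6 per kilobase in WT and 110.4 in KO, with vitro H3K27ac of 1.84 and 2.06; without the label H3K27ac was 4.82 and 14.4. Zfp536, which is active in neural differentiation, had H3K27me3 of 28.5 and 37.2, and Zfp521, a regulator of neural and haematopoietic progenitors, 25.3 and 23.1. Vitro H3K27ac of both was 1.72 or less. Zfp385a and Zfp385c were also high in H3K27me3, at 45.2 and 45.6 in WT and 92.3 and 37.8 in KO. Zfp503 (Nlz2), a corepressor in development, had both marks, with H3K27me3 of 45.7 in WT and 22.9 in KO and vitro H3K27ac of 24.1 and 38.7. Its relative Zfp703 had little H3K27me3 (4.28 and 9.24) and much vitro H3K27ac (78.3 and 92.4).

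Of 5 members known to control imprints or retroelements, 3 had H3K27ac past 1.5-fold higher in KO in the pair without the vitro label and none was past it in the vitro pair, where 33.3% and 10.9% of all genes were called higher. Zfp57, which protects imprinted methylation in the embryo, had H3K27ac of 3.83 per kilobase in WT and 14.5 in KO without the vitro label, but 15.7 and 17.4 in the vitro pair. Zfp445, which acts beside Zfp57, had 5.54 and 7.34, and 8.16 and 9.61. Zfp568, a repressor of a placental Igf2 promoter, had 15.9 and 22.7, and 19.1 and 20.02. Zfp809, which silences proviruses in stem cells, had 11.4 and 22.1, and 14.9 and 11.5. Zfp932, a repressor of endogenous retroviruses, had 4.32 and 11.1, and 12.3 and 10.1. The 3 called were Zfp57, Zfp809 and Zfp932, and with so few genes the count is a description only. The log2 ratio of Zfp445, 0.27, was under the shift of all genes (0.32). Zfp42 (Rex1), a marker of pluripotent cells, had 2.93 or less H3K27ac in each library and H3K36me3 listed at 0 in both. Zfp281, a transcription factor of the same cells, had 13.6 and 22.0, and 9.77 and 22.6, and was called higher in KO in the vitro pair, as were 31 of the 354 members measured there.

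The 8 members with general roles had H3K27ac of 9.76 to 85.7 per kilobase in each library. Zfp143, a transcription activator at many promoters, had H3K27ac of 32.7 per kilobase in WT and 40.8 in KO, and 40.7 and 50.6 in the vitro pair. Zfp207 (BuGZ), a spindle assembly factor, had 9.76 and 24.7, and 28.7 and 39.4. Zfp335 had 34.8 and 58.3, and 83.5 and 55.4, and so was higher in KO in 1 setting and lower in the other, the second by less than the 1.5-fold rule (log2 ratio -0.57). Zfp91, a ubiquitin ligase, had 40.7 and 60.5, and 85.7 and 81.4; its promoter values are identical to those of another gene in all 6 promoter libraries, as are those of 6 more members (Zfp148, Zfp433, Zfp518a, Zfp781, Zfp942 and Zfp943), so the genes of each such set cannot be told apart.

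Gene-body H3K36me3 differed widely between KO and WT at the Zfp genes, with no common direction. Of 269 members measured, 72 were called higher in KO and 85 lower, where 27.1% and 30.3% of all 15475 genes measured were called so. The members' shares, 26.8% and 31.6%, were near this background. Their median log2 ratio was -0.12, that of all genes -0.08 and that of other protein-coding genes weighted to the members' signal and span -0.08. The scaling of the libraries is not given, so a loss of the same proportion at every gene would not show in these values, and fewer cells with a mark cannot be told apart from less of it per cell.

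The wide ratios came with short genes and with zeros. Of the 269, 22 were listed at 0 only in KO (8.44% of all genes measured were) and 26 only in WT (11.9%). Zfp580, of 2.19 kb, was at 40.9 per kilobase in WT and listed at 0 in KO, Zfp688, of 3.10 kb, at 37.4 and 0, and Zfp579 at 25.4 and 0. In the other direction, Zfp882 was listed at 0 in WT and at 33.9 in KO, Zfp628 at 0 and 22.0, and Zfp637 at 0 and 20.1. No fold is given for these, since a listed 0 beside such signal can be a failed estimate; Zfp36l2, with its strongly acetylated promoter, was also listed at 0 in KO and at 15.5 in WT. The share of members at 0 in KO was 12 of 25 under 5 kb, 41 of 203 from 5 to 20 kb, 11 of 129 from 20 to 50 kb and 1 of 42 beyond. Other protein-coding genes also had fewer zeros with span, with 54.5%, 22.2%, 4.02% and 0.404% at 0 in KO in the same classes.

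Among the 118 measured members of at least 20 kb, 26 were higher and 26 lower (17% and 22.5% of all 8218 such genes). Zfp367 had the highest ratio, with 0.694 per kilobase in WT and 12.1 in KO (log2 ratio 2.14, counting interval of the ratio of values 11.1 to 29.0), followed by Zfp91 (0.0240 and 6.33), Zfp961 (1.09 and 9.83) and Zfp735 (1.01 and 9.06). Zfp120 had the lowest, with 9.62 in WT and 0.889 in KO (log2 ratio -1.79, interval 0.0604 to 0.136). Zfp874a (8.63 and 1.01), Zfp948 (10.7 and 2.05), Zfp652 (5.77 and 0.677), Zfp160 (12.2 and 3.34) and Zfp217 (7.34 and 1.52) followed. In the 35 measured members of 50 kb and over, the SD of the log2 ratios was 0.53, and it was 2.25 in the 19 under 5 kb. The plot against span shows this narrowing. It was not particular to the members, since other protein-coding genes had SDs of 0.55 and 2.66 in these classes.

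**Figure D2:**
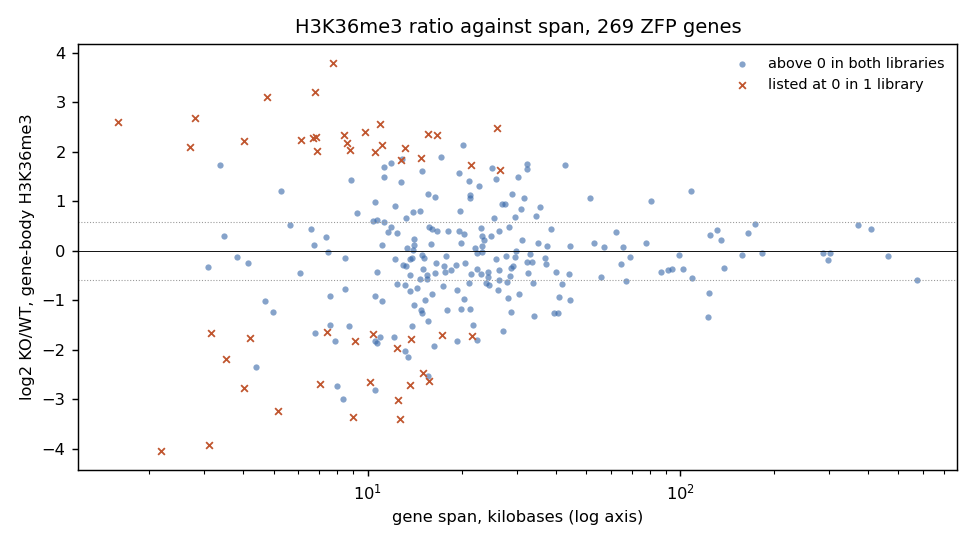
Log2 KO over WT ratio of gene-body H3K36me3 against gene span in kilobases (log axis) for the 269 measured Zfp genes; dotted lines mark 1.5-fold. Blue points are genes with signal in both libraries and orange crosses genes listed at 0 in 1 of them, and both the spread and the crosses gather at short spans.

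Many Zfp promoters carried more H3K27ac in KO when the vitro label was absent, as did the genes as a whole. Of 341 members measured, 105 were called higher and 25 lower, where 33.3% and 11.5% of 18671 genes were called so. The members' median log2 ratio was 0.29 beside 0.32 for all genes and 0.25 for protein-coding genes of matched signal and span. Relative to the shift of all genes, the split turned even, with 55 members higher and 64 lower and a median of -0.025, so no direction of the family as a whole is given here. The members called lower made up 7.33%, against 12.95% of the matched genes.

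Zfp386 had the widest difference, from 7.095 per kilobase in WT (128 read ends) to 37.2 in KO (679 read ends), a ratio of 5.24 (counting interval 4.01 to 6.97). In the vitro pair it had 13.7 and 15.4. Zfp51 had 11.4 and 42.3, and Zfp788 had 8.54 and 32.1. The neighbours Zfp729a and Zfp729b, near copies on chromosome 13, had 3.88 and 19.7, and 3.05 and 15.6. Zfp85 had 3.22 and 14.9. The lowest ratios, apart from that of Zfp579, were at promoters of modest signal. Zfp985 had 8.32 in WT and 0.987 in KO, Zfp941 7.65 and 1.10, Zfp981 6.54 and 0.657, and Zfp945 7.48 and 1.21. Zfp579 had 16.5 and 5.92, and Zfp879 7.98 and 1.97. In KO, Zfp981 rests on 12 read ends and Zfp985 on 18, and all 6 were under 1.5-fold with a pseudocount at 5 times the floor.

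In the vitro pair the Zfp promoters differed less between KO and WT. Of 354 members measured, 31 were higher and 27 lower, where 10.9% and 13.6% of 18960 genes were called so. The members' median log2 ratio was 0.03, beside -0.07 for all genes and -0.07 for matched genes, and relative to all genes 37 were higher and 21 lower. Fewer members than matched genes were called lower (7.63% against 12.7%). Their log2 ratios had an SD of 0.49, and 0.55 in the matched genes. The plot of shares called gives each pair beside its background.

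**Figure D3:**
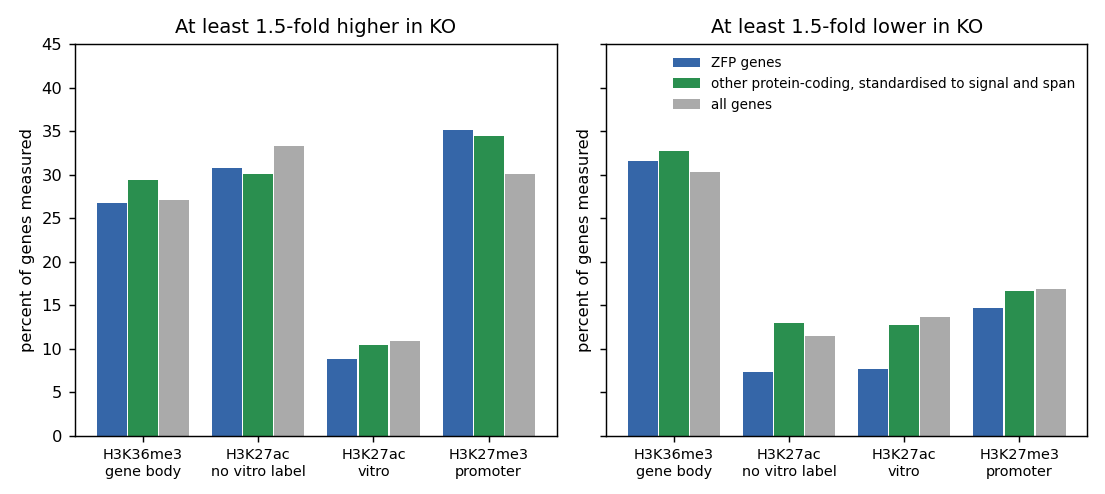
Percent of genes measured past 1.5-fold in KO, higher on the left and lower on the right, for each pair. Blue bars are Zfp genes, green bars other protein-coding genes weighted to the members' signal and span, and grey bars all genes; without replicates the bars have no error. The blue bars for lower H3K27ac, at 7.33% and 7.63%, are below the green ones.

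Zfp422 had the lowest ratio of the vitro pair, with 14.1 per kilobase in WT (246 read ends) and 2.12 in KO (37 read ends), a ratio of 0.15 (interval 0.0895 to 0.2504). Without the vitro label it had 6.87 and 6.03. Zfp78 had 23.6 and 7.44 in the vitro pair, and its cluster neighbour Zfp28 had 12.5 and 3.78. Zfp82 had 13.8 and 4.35, Zfp516 49.99 and 19.96, and Zfp334 5.17 and 1.20. At the other end, Zfp37 had 1.15 in WT and 11.1 in KO, Zfp983 4.14 and 23.0, Zfp273 3.16 and 17.8, Zfp469 4.37 and 20.8, Zfp882 6.21 and 25.6, and Zfp709 1.84 and 10.98. Zfp709 and Zfp882 lie 26.6 kb apart in 1 chromosome 8 cluster. Zfp882 and Zfp617 have starts 27 bases apart in the table but unlike promoter values (vitro WT 6.21 and 25.5), so their windows were not both set on those starts.

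Few members differed in the same direction in both H3K27ac pairs. Of 329 measured in both, 12 were higher in both (5.25% of 17300 genes were) and 1, Zfp354a, was lower in both (2.28%). Ranked by the smaller of both ratios, Zfp882 came first, with 6.32 in WT and 16.4 in KO and, in the vitro pair, 6.21 and 25.6. It was followed by Zfp273, Zfp229, Zfp467 and Zfp518a. Zfp354a had 5.32 in WT and 1.42 in KO, and 6.49 and 2.86. Zfp660 and Zfp750 were higher in KO without the label and lower with it (2.78% of genes), and Zfp185, Zfp941 and Zfp945 the reverse (0.694%). Across the 329 members the 2 sets of log2 ratios were weakly related (r = 0.11, rho = 0.12), as they were across 13358 other protein-coding genes (r = 0.21), although WT levels in the 2 settings went together closely (r = 0.82, n = 399).

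Promoter H3K27me3 was higher in KO at more members than it was lower. Of 265 measured, 93 were higher and 39 lower, where 30.1% and 16.8% of 19033 genes were called so. The median log2 ratio was 0.24, beside 0.25 in matched genes and 0.18 in all genes; relative to all genes, 72 were higher and 51 lower. Most of the 265 had little signal: the floor of 1.54 per kilobase is 27.9 read ends in the KO library.

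Zfp651 had the strongest signal among the members with the highest ratios, 6.91 per kilobase in WT (126 read ends) and 30.8 in KO (560 read ends), a ratio of 4.46 (interval 3.38 to 5.96). Zfp318 had 3.18 and 17.2, Zfp275 3.84 and 14.95, Zfp251 0.767 and 8.58, Zfp40 0.328 and 7.59, and Zfp341 0.110 and 5.17. Zfp809, Zfp592 and Zfp324 were listed at 0 in WT and at 6.05, 5.83 and 4.62 in KO. In the other direction Zfp870 had 5.81 in WT and 0.0550 in KO, which is 106 read ends and 1. Zfp513 had 5.15 and 0.330, Zfp865 5.70 and 0.495, Zfp629 5.70 and 0.660, Zfp830 8.44 and 2.14, and Zfp90 2.96 and 0.275. Zfp217, whose human counterpart is amplified in breast cancer, had 3.29 in WT and was listed at 0 in KO. Among promoters already high in H3K27me3, Zfp385a was 2.04 times as high in KO (interval 1.81 to 2.30), Zfp580 1.48 times (1.33 to 1.65) and Zfp503 0.50 times (0.42 to 0.59).

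The 2 promoter marks differed in opposite directions at a minority of members. Without the vitro label, 5 of 230 had higher H3K27me3 with lower H3K27ac in KO (3.46% of 14786 genes did) and 11 had the reverse (5.09%). With the vitro H3K27ac pair, 6 of 242 fell in each class (4.79% and 2.28% of 14975 genes). Zfp870 was in the first reverse class, with H3K27ac of 7.43 in WT and 20.2 in KO where H3K27me3 was 5.81 and 0.0550. Zfp513 had H3K27ac of 27.2 and 59.3, and Zfp865 15.8 and 26.1. In the vitro pair, Zfp422 had H3K27me3 of 1.04 in WT and 3.63 in KO beside its lower H3K27ac, and Zfp516 had 4.60 and 16.4. Zfp750, an epidermal differentiation factor, had H3K27me3 listed at 0 in WT and at 3.41 in KO with vitro H3K27ac of 13.6 and 6.75. Zfp217 had vitro H3K27ac of 7.76 in WT and 17.96 in KO, Zfp462, a large nuclear protein of embryonic stem cells, 10.8 and 21.3 beside H3K27me3 of 24.6 and 10.7, and Zfp503 differed in the same way. Without the vitro label, the log2 ratios of H3K27ac and H3K27me3 had r = 0.15 and rho = 0.15 over 230 members and r = -0.00056 over 11188 other protein-coding genes. With the vitro H3K27ac pair r was -0.02 (rho = 0.00) over 242 members and -0.09 over the other genes; coefficients this small in sparse counts are given as descriptions only. H3K27me3 was measured without the vitro label only, so the vitro comparison sets different pairs side by side.

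**Figure D4:**
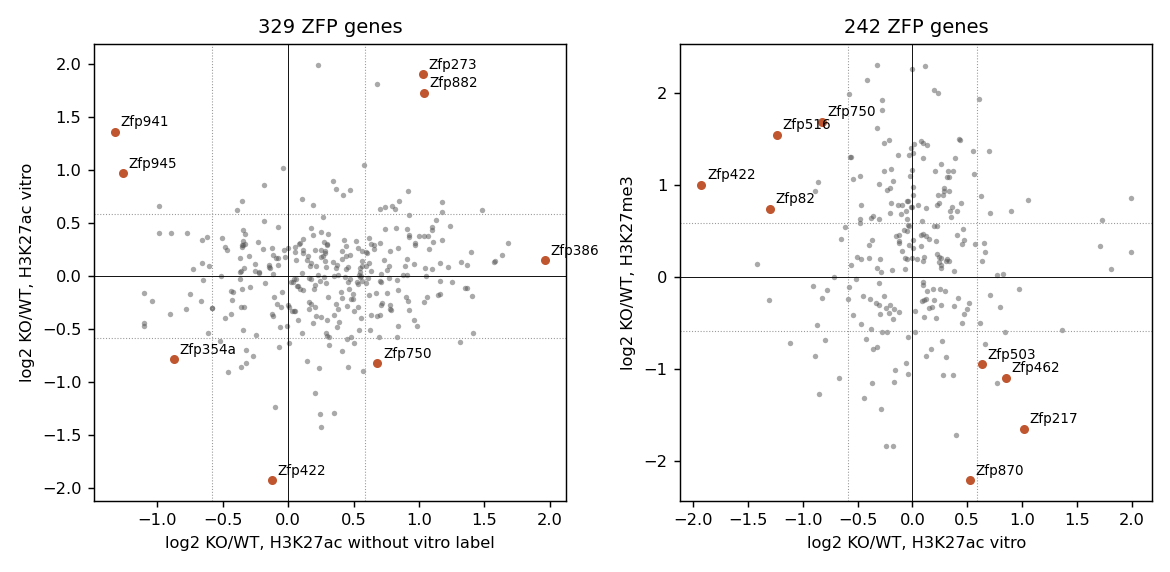
Log2 KO over WT ratios of the Zfp genes measured in both comparisons, for the H3K27ac pairs (left, 329 genes; vitro on the vertical axis) and for vitro H3K27ac against H3K27me3 (right, 242 genes); dotted lines mark 1.5-fold. Each point is 1 gene and the orange points are named members. The points spread along both axes with few in the corners.

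Clustered members had less of each mark than dispersed ones. In WT, the medians over 177 clustered and 222 dispersed members were 6.99 and 9.04 per kilobase for H3K27ac, 8.68 and 12.4 for vitro H3K27ac, 1.21 and 2.47 for H3K27me3, and in gene bodies 3.01 and 3.77 for H3K36me3. Spans had medians of 15.7 and 19.5 kb. The KO libraries had the same order (8.54 and 11.9, 9.95 and 13.2, 1.98 and 3.35, and 2.91 and 3.72). Shares called higher in H3K27ac without the vitro label were alike, 31.2% and 30.5%. Clustered genes are similar in sequence, and how reads that match several copies were treated is not given in the sources used here.

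Individual clusters differed in the pair without the vitro label. On chromosome 17, the 18 members from Zfp677 to Zfp946 had a median log2 ratio of 0.84 in the 15 measured, 9 of them called higher and none lower (33.3% and 11.5% of all genes were), and 0.33 in the vitro pair. Zfp51, Zfp52, Zfp53, Zfp54 and Zfp948, which lie together there, were all called higher, with log2 ratios of 1.63, 0.93, 0.91, 0.84 and 0.74. H3K27me3 was also higher there, at 6 of 9 measured and lower at none (30.1% and 16.8% of all genes). On chromosome 13, the 24 members from Zfp712 to Zfp273 had a median of 0.64, with 10 of 19 called higher and 1 lower. Within it the called promoters ran from Zfp874b to Zfp273, with Zfp738 and Zfp493 between them not called. The 8 members from Zfp607b to Zfp850 on chromosome 7 had a median of -0.27, with 3 called lower and none higher. The 6 from Zfp354c to Zfp354a on chromosome 11 had a median of -0.47, with 3 lower and 1 higher. In the vitro pair the chromosome 7 cluster went the other way, with a median of 0.17 and 1 of 8 higher and none lower (10.9% and 13.6% of all genes were). The vitro medians of the chromosome 13 and 11 clusters were 0.19 and -0.47.

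Relative to the shift of all genes, the chromosome 17 cluster from Zfp677 to Zfp946 kept a median of 0.52 with 7 higher and 3 lower. The chromosome 13 cluster kept 0.32 with 5 higher and 2 lower. The chromosome 7 cluster stood at -0.59 and the chromosome 11 cluster at -0.78. On chromosome 8, 3 of the 4 members from Zfp709 to Zfp961 were measured in H3K27ac without the vitro label. All 3 were called higher before this adjustment (33.3% of all genes were), and 2 relative to the shift of all genes. All 3 were also measured and called higher in H3K36me3 (27.1% of all genes were). There Zfp882 and Zfp617 were listed at 0 in WT and at 33.9 and 12.2 per kilobase in KO, and Zfp961 had 1.09 and 9.83. A listed 0 beside such signal can be a failed estimate. Members of a cluster share their surroundings and, in places, their reads, so they are not replicates.

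**Figure D5:**
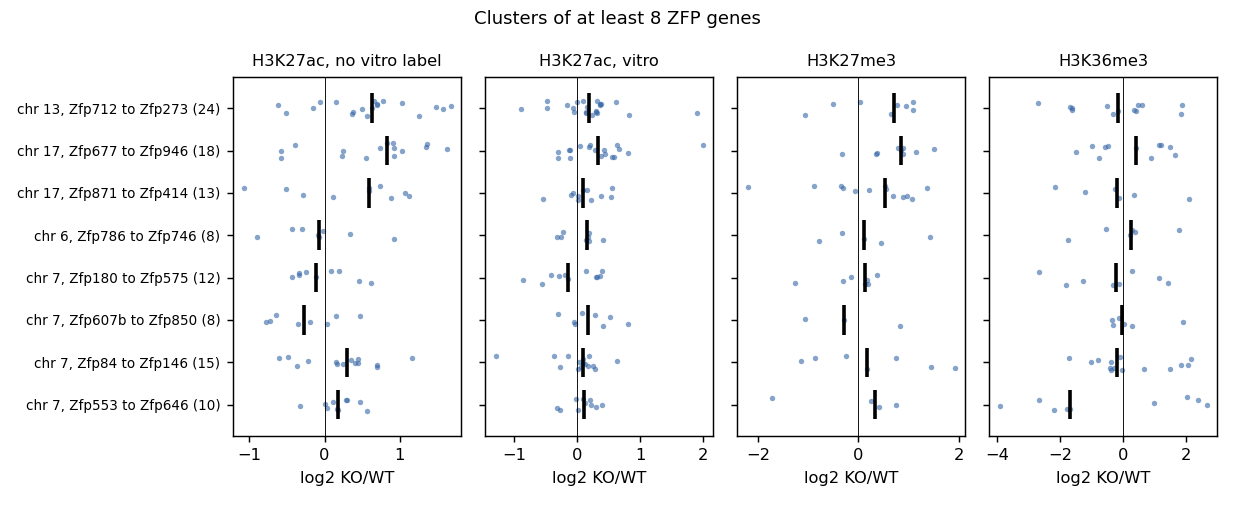
Log2 KO over WT ratios of the measured Zfp genes in the 8 clusters of at least 8 members, for each pair; points are genes, black bars medians, and the number in brackets is the cluster's size. In H3K27ac without the vitro label, the chromosome 13 cluster (median 0.64) and the chromosome 17 cluster from Zfp677 to Zfp946 (0.84) lie to the right. The other chromosome 17 cluster, from Zfp871 to Zfp414, had a median of 0.595, and all genes had 0.32. Relative to all genes, that cluster had 2 higher and 3 lower of 10 measured. H3K36me3 points scatter most widely.

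Acetylation went with promoter CpG content among the 283 members whose RefSeq start lay within 500 bases of the table's. Vitro WT H3K27ac had medians of 4.60, 7.58, 13.1 and 21.3 per kilobase in members with under 5, 5 to 14, 15 to 24 and 25 or more CpGs (18, 129, 96 and 40 genes). The correlation with the log2 level was r = 0.37 (rho = 0.43, n = 283) and 0.41 in 11136 other protein-coding genes. H3K27me3 in WT related weakly to CpG content (r = 0.12, and -0.10 in the other genes). KO over WT ratios of vitro H3K27ac did not follow the classes, with medians of -0.11, 0.10, -0.02 and -0.02. In H3K27me3, 17 of 32 measured members with 25 or more CpGs were called higher and 4 lower, beside 30.1% and 16.8% of all genes. Single genes could depart from this relation, since Zfp423, with 21 CpGs, had 1.84 in WT and 2.06 in KO in the vitro pair. Zfp422, with 32 CpGs, had 14.1 in WT, under the median of its class (21.3), and 2.12 in KO.

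The KAP1 pathway, through which KRAB members act, was read at 21 genes. Trim28 (KAP1) had vitro H3K27ac of 22.4 per kilobase in WT and 26.4 in KO, and 21.5 and 29.0 without the label; its H3K36me3 was 9.05 in WT and listed at 0 in KO. Setdb1, the H3K9 methyltransferase it recruits, had 12.99 and 11.9, and 6.21 and 4.71. Without the vitro label 6 of the 21 were called higher (Cbx1, Cbx3, Cbx5, Ehmt1, Pphln1 and Suv39h2) and none lower, where 33.3% and 11.5% of all genes were. In the vitro pair 3 of the 21 were higher and 1 lower (10.9% and 13.6% of all genes). In H3K27me3, 6 of 15 measured were higher and 2 lower (30.1% and 16.8%), and in H3K36me3 2 of 20 were higher and 5 lower (27.1% and 30.3%). Median vitro WT H3K27ac of the 21 was 22.3, against 9.998 for the Zfp genes. The widest H3K27ac difference among them was at Suv39h2, an H3K9 methyltransferase, with 6.87 in WT and 28.2 in KO without the label and 18.04 and 25.7 with it.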

How the data were processed

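H3K36me3, H3K27ac and H3K27me3 were measured by CUT&Tag in 8 libraries, 1 per group. The authors deposited 1 table of 25450 rows with values that are signal, mean coverage per base in a promoter window or gene body. The build was mm10 and the software included MACS2 2.2.7.1, HOMER and Bowtie2 2.4.2, per the submitters' processing notes; the sources used here do not give settings, scaling, duplicate handling or window placement. Promoter values times 6000 bases were whole multiples of a step per library in 99.6% to 99.996% of positive values (tolerance 0.0055 after the multiplication), read as whole read ends, with 4323235 to 6621158 ends in the windows of a library. Odd numbers made up 7.41% to 12.6% of values under 20, so ends mostly came in pairs, and intervals used pairs. For H3K36me3 a step was found only with RefSeq spans and for part of the genes, and 93 measured members have intervals there. A count model had no residual degrees of freedom with 1 library a group and was not fitted.

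Where a gene had several rows, the one with the highest mean was kept (214 rows joined). Floors were 2.66, 3.29, 2.18 and 1.54 per kilobase for H3K36me3, H3K27ac (no vitro label), H3K27ac (vitro) and H3K27me3. Matched values weight other protein-coding genes to the members' 5 classes of pair mean and 4 of span. Members, lists, classes and the naming rule were chosen with earlier results of these data known. Named are the 6 highest and 6 lowest ratios per pair above 0 in both libraries (for H3K36me3 at 20 kb or more), up to 3 listed at 0 in 1 library, the 5 highest WT levels, members called in both H3K27ac pairs or oppositely between marks, and 26 members of known role; the members of named clusters and of the motif set were named after their values were seen. The code was tested on simulated data and run with Python 3.11.15, pandas 2.3.3 and scipy 1.17.1. Alternatives were other pseudocounts, filters, scalings, joining of rows, and members sharing values.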

Additional observations from a re-analysis of the deposited data

Results flagged for a closer look

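At 5 members the KO over WT difference in promoter H3K27ac passed 1.5-fold in opposite directions in the 2 settings. The difference between settings was not tested, since each pair is 1 library against 1. Zfp941 had log2 ratios of -1.32 without the vitro label and 1.36 with it, from 138 and 20 read ends in WT and KO against 12 and 91. Zfp945 had -1.26 and 0.97, and Zfp185 had -0.98 and 0.66. Zfp660 had 1.31 and -0.62, and Zfp750 had 0.68 and -0.82. H3K27me3 at Zfp941 was high, 20.3 per kilobase in WT and 13.1 in KO, as it was at Zfp185, with 17.6 and 21.5. Among all genes, 2.78% were higher without the label and lower with it and 0.694% the reverse.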

How the results depend on the processing

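No paired analysis was possible because each group held 1 library, so no replicate could be left out either, and no call has a replicate check. Of 180 recomputed summary values, 147 stayed within 1.5 times the count or within the median's interval, and 33 moved. The median gap to matched genes did so under no alternative, but the change allowed was set by the interval of the members' median ratio, not of the gap. The sign of the gap did change in some alternatives. It went from -0.040 to 0.030 in H3K36me3 at 20 kb or more. With the filter at the median it went from 0.040 to -0.0009 in H3K27ac without the label and from -0.005 to 0.022 in H3K27me3. With a pseudocount at 5 times the floor, calls higher and lower were 37 and 39 in H3K36me3, 33 and 0 for unlabelled H3K27ac (median 0.16), 8 and 8 for the vitro pair and 22 and 9 for H3K27me3; with the smaller pseudocount, 48 were lower in the vitro pair. With the filter at the median of positive values, 40 of 166 measured were higher for H3K36me3 and 6 of 223 lower for H3K27ac without the label (median 0.41). In the vitro pair 17 of 260 were lower, and for H3K27me3 36 of 110 were higher and 15 lower. These counts are among fewer genes than the main ones, so a smaller count need not be a smaller share. Without genes at 0, 46 were higher for H3K36me3, and at 20 kb or more 26 were higher and 26 lower, in each case among fewer genes. Centred on all genes, H3K27ac without the label had 55 higher and 64 lower (median -0.025), the vitro median was 0.0995 and that of H3K27me3 0.069. Quantile normalization gave 65 higher, 44 lower and a median of 0.014 for H3K27ac without the label. Counting members with the same value in a library once, which drops low members that coincide because values are whole read ends, gave levels relative to other protein-coding genes of 0.985 and 0.978 (H3K27ac in KO and WT), 1.11 and 1.09 (vitro), and 1.14 and 0.873 (H3K27me3); with sets alike in all promoter libraries counted once, an alternative chosen after seeing the data, no level moved. Of 240 recomputed ratios of named members, 12 fell under 1.5-fold, all with the larger pseudocount, and none reversed. Depth limits the low promoters: 38 members were at 0 in H3K27me3 in WT and 6 in each WT H3K27ac library. In H3K36me3, 75 were listed at 0 in WT.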

Other observations

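Other zinc finger families gave a different level of acetylation. Vitro WT H3K27ac had a median of 21.9 per kilobase over 42 Zbtb genes, which pair a BTB domain with zinc fingers, and of 22.0 over 29 Klf and Sp genes, which bind GC boxes, against 9.998 over the Zfp genes. The 28 Zscan and Zkscan genes, which carry a SCAN domain, were at 6.90. H3K27me3 in WT was 2.14, 4.33 and 1.43 in the same order, against 1.75. Without the vitro label, 14 of 41 Zbtb genes measured were higher in H3K27ac and 3 lower, 12 of 25 Klf and Sp genes were higher and 2 lower, and 10 of 21 Zscan and Zkscan genes were higher and 2 lower; 33.3% and 11.5% of all genes were. In the vitro pair 4 of 40, 1 of 24 and 1 of 19 genes measured were higher and 3, 2 and 1 lower (10.9% and 13.6% of all genes were).

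Another gene's start lay within 3 kb of the start of 48 Zfp genes. Zfp942 and Zfp943, on opposite strands with starts 88 bases apart, had the same promoter values in all libraries and different gene-body H3K36me3, with 1.38 per kilobase in WT and 4.84 in KO for Zfp942 and 2.31 and 8.73 for Zfp943.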
